A study of Homo sapiens with 4 samples.

Results

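AP-1 is a group of dimeric transcription factors, and 9 genes for its subunits and close partners were followed across the arrays: *FOS*, *FOSB*, *FOSL1*, *FOSL2*, *JUN*, *JUNB*, *JUND*, *BATF* and *ATF3*. Probes were assigned by the transcript accession that the arrays give them, which found 13 probes for 8 of the 9 genes, out of 17721 genes matched in all. *JUND* had no matched probe, so its signal was not analysed and only the bases around its start were searched. The group was selected from results of these same 4 arrays. The measured signals therefore chose the members, and their values are given as a description with no test.

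The study examined the INO80 chromatin remodeling complex through 2 of its actin-related subunits, Arp5 and Arp8, in Nalm-6 cells, a human pre-B leukemia line. Total RNA from unstressed cultures was labeled with Cy3 and hybridized to Agilent arrays, with 1 array each for wild-type (WT) cells, Arp5 KO cells, Arp8 KO cells and cells labelled Arp8 overexpression. Both gene loci had been disrupted by homologous recombination, and the design text places a tetracycline-regulated (Tet-Off) Arp8 system in the Arp8 KO cells. Each genotype label had 1 array, so no difference has a replicate check and the number of arrays limits the precision. Whether the Arp8 arrays came from separate lines was not examined.

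Fos proteins need a partner to bind DNA, mostly a Jun protein, whereas Jun proteins can also pair among themselves. The dimers contact DNA through a basic leucine zipper (bZIP) and recognise the TPA response element or the closely related cyclic AMP response element. *FOS*, *FOSB*, *JUN* and *JUNB* are immediate early genes, transcribed within minutes of growth factor, antigen receptor or stress signals. BATF pairs with Jun proteins in lymphocytes, and ATF3 is a stress-induced member of the ATF branch.

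Signals are the scanner software's background-subtracted intensities in arbitrary units. Ratios are differences in log2 signal after subtracting the 75th percentile of each array. The measured members were well above background on at least 1 array, as were 13845 genes in all, and spots above background numbered 31188 in WT, 31420 in Arp5 KO, 30394 in Arp8 KO and 30803 on the array labelled Arp8 overexpression. Technical error was estimated from probes spotted repeatedly. The median SD of their log2 ratios was 0.491 for probes whose dimmer signal was under 20 units, 0.153 from 20 to 50 units, 0.0628 from 50 to 500 units and 0.0314 above 500 units. This spread comes from spots within the same arrays. It does not include differences between cultures, or in labeling or hybridization. The software's own error was wider for bright probes, as with 147 units for an *ATF3* signal of 1469 in WT.

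The targeted genes were examined first. *ACTR5*, which encodes Arp5, gave 1909 units in WT, 65.3 in Arp5 KO, 1849 in Arp8 KO and 2088 on the array labelled Arp8 overexpression, so its signal was low on the Arp5 KO array alone. *ACTR8*, which encodes Arp8, gave 1092 units in WT, 993 in Arp5 KO, 785 in Arp8 KO and 679 on the array labelled Arp8 overexpression with probe A_23_P80694. Its other probe, A_24_P131697, gave 2149, 2233, 1654 and 1857 units in the same order. The array labelled Arp8 overexpression was thus not higher than WT with either *ACTR8* probe, at log2 ratios of -0.71 and -0.23, and it is called by its label throughout. Whether the *ACTR8* probes lie inside the disrupted part of the gene was not examined, and the labels do not say whether the Tet-Off system was on or off in the cells of either Arp8 array, so their signal does not check the Arp8 labels.

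All 10 markers of pre-B cells were well above background on all 4 arrays. Their summed level, in multiples of the 75th percentile, was 181 in WT, 189 in Arp5 KO, 181 in Arp8 KO and 191 on the array labelled Arp8 overexpression, with the strongest signal from *IGLL1*, a surrogate light chain gene. The cell type named in the labels was therefore visible on every array. Of 5 T cell markers 3 were above background, with the strongest signal from *CD8A* and sums of 0.107, 0.107, 0.0934 and 0.106 in the same order of arrays. Of 3 erythroid markers only *ALAS2* was, at 0.0107, 0.0108, 0.0125 and 0.0118, and of 3 fibroblast markers *COL1A1* had no matched probe and 0 of the other 2 were.

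*FOS*, whose product is the founding Fos subunit of AP-1, was measured by a probe with 1 spot, A_23_P106194. Its signal was 58.7 units in WT, 2237 in Arp5 KO, 306 in Arp8 KO and 111 on the array labelled Arp8 overexpression. From highest to lowest the order was thus Arp5 KO far above Arp8 KO, then the array labelled Arp8 overexpression, with WT last. The software's own error was 6.17 units for WT and 224 units for Arp5 KO. Over WT the log2 ratio was 5.27 in Arp5 KO (38.7-fold), 2.36 in Arp8 KO (5.15-fold) and 0.90 on the array labelled Arp8 overexpression (1.86-fold). *FOS* ranked 2 of 13705 genes in Arp5 KO over WT, 20 of 13502 in Arp8 KO over WT and 334 of 13622 on the array labelled Arp8 overexpression. With normexp background correction, which lifts dim signals, the log2 ratios over WT were smaller, at 4.23 in Arp5 KO and 1.60 in Arp8 KO. Since each array held RNA of a whole culture, fewer expressing cells and less RNA per cell cannot be told apart here.

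*FOSB*, a Fos protein gene that is transcribed with *FOS* after many stimuli, had the same order of arrays. Probe A_23_P429998 gave 36.2 units in WT, 347 in Arp5 KO, 82.8 in Arp8 KO and 54.5 on the array labelled Arp8 overexpression. Arp5 KO was again the high array, and the 3 others lay far below it. The log2 ratio was 3.28 in Arp5 KO over WT (9.71-fold), 1.18 in Arp8 KO over WT (2.26-fold) and 0.57 on the array labelled Arp8 overexpression over WT (1.48-fold). Arp8 KO over WT was past 2-fold by little, and with normexp background correction it was 0.49 and no longer past 2-fold. Arp5 KO over WT was 2.10 with that correction.

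*FOSL1* and *FOSL2* encode Fra-1 and Fra-2, the Fos proteins that lack the strong transactivation domain of c-Fos. *FOSL1* was dim on every array, with 29.1 units in WT, 24.6 in Arp5 KO, 28.1 in Arp8 KO and 16.2 on the array labelled Arp8 overexpression (probe A_23_P161624). Its lowest array was the one labelled Arp8 overexpression, at a log2 ratio of -0.87 over WT, where the technical SD of so dim a probe was 0.491. Arp5 KO over WT had a log2 ratio of -0.22 and Arp8 KO over WT one of -0.07. The other *FOSL1* probe, A_23_P322519, was well above background only in Arp8 KO, at 13.8 units, and not well above background on the other 3 arrays. It was at least 1.76-fold higher in Arp8 KO than in WT, so the 2 probes disagree there. The mean over both gave a log2 ratio of at least 0.37, since the ratio of A_23_P322519 is itself a bound.

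*FOSL2* was flat across the genotypes with all 3 of its probes. The brightest, A_23_P218555, gave 121 units in WT, 125 in Arp5 KO, 125 in Arp8 KO and 129 on the array labelled Arp8 overexpression. Probe A_23_P345581 gave 82.2, 82.8, 85.9 and 86.1 units in the same order, and A_23_P348121 gave 34.2, 34.5, 34.2 and 33.6. Log2 ratios of the brightest probe lay between -0.03 and 0.06 over the 6 comparisons, and the sign of 5 of them depends on the setting. Within the Fos subfamily, *FOS* and *FOSB* therefore differed between arrays by far more than the technical SD, and *FOSL2* by about 1 technical SD under this scaling and by up to 0.14 after quantile normalization.

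**Figure D1:**
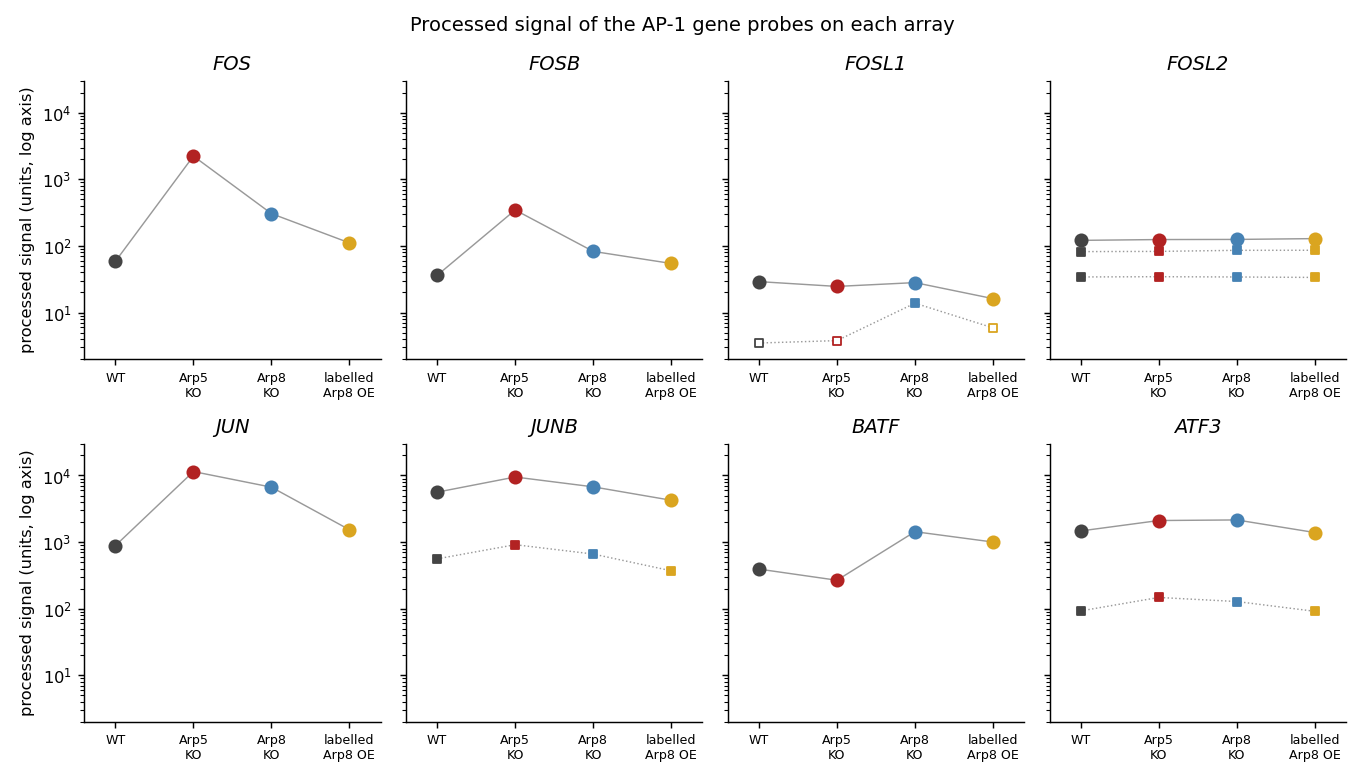
Processed signal of each AP-1 gene probe on the 4 arrays, in units on a log axis, with 1 panel per gene. Circles are the probe used for the gene and squares its other probes, open symbols are not well above background, and OE stands for overexpression. *FOS*, *FOSB* and *JUN* are high in Arp5 KO, *BATF* is high on both Arp8 arrays, and *FOSL2* is level.

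The bases just upstream of the start of the genes were taken from RefSeq (GRCh38.p14), to show what the members that moved together and the level *FOSL2* share in sequence. Windows of 250 bases before to 50 after the start were found for 8 of the 9 genes, 9 windows in all. The set of windows used here held none for *FOSL1*, which says nothing about RefSeq itself. They were searched on both strands for TGANTCA (the TPA response element), TGACGTCA (the cyclic AMP response element), TGACATCA, and the CArG box that serum response factor binds. TGACG, the first 5 bases of TGACGTCA and so overlapping it, was added after the windows had been seen. Capitals mark any of these motifs, and the last base printed is the base before the start. The *FOS* stretch is chr14:75278688-75278827 on the plus strand, the *FOSB* stretch chr19:45467856-45467995 on the plus strand and the *FOSL2* stretch chr2:28392718-28392857 on the plus strand.
FOS: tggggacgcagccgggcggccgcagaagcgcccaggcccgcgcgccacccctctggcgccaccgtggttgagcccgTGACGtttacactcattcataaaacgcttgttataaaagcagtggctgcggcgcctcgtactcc
FOSB: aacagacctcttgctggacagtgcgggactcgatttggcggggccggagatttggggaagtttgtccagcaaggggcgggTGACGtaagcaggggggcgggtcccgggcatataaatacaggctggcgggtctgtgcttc
FOSL2: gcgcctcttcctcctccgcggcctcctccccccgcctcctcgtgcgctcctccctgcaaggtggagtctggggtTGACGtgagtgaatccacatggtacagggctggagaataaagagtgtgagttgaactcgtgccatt
Each stretch holds TGACG, from base -64 to -60 in *FOS*, from -60 to -56 in *FOSB* and from -66 to -62 in *FOSL2*. The *FOSL2* window has TGACG once more, on the opposite strand from -201 to -197, and TGACTCA, a form of TGANTCA, from 5 to 11 after the start. TGACG was in 24.6% of all 35116 windows of 300 bases and TGANTCA in 7.71%. Because TGACG was added after the windows had been seen, nothing is read from its presence in each stretch.

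*JUN*, which encodes c-Jun, the main dimer partner of Fos proteins, was printed 10 times on each array as probe A_23_P201538. The median of its spots was 878 units in WT, 11429 in Arp5 KO, 6640 in Arp8 KO and 1525 on the array labelled Arp8 overexpression. Spot signals ranged from 862 to 950 in WT and from 11145 to 12030 in Arp5 KO. They ranged from 6577 to 6911 in Arp8 KO and from 1492 to 1608 on the array labelled Arp8 overexpression. Both KO arrays were thus high, and the array labelled Arp8 overexpression lay nearer to WT. Spots of 1 array share the same RNA and are not replicates of a genotype. The log2 ratio over WT was 3.72 in Arp5 KO (13.2-fold), 2.90 in Arp8 KO (7.46-fold) and 0.77 on the array labelled Arp8 overexpression (1.71-fold), with an SD over the 10 spots of 0.0210, 0.0370 and 0.0182. *JUN* ranked 3 of 13705 genes in Arp5 KO over WT and 8 of 13502 in Arp8 KO over WT. Arp5 KO exceeded Arp8 KO by a log2 ratio of 0.82 (1.76-fold) for *JUN*, against 2.91 (7.51-fold) for *FOS*.

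**Figure D2:**
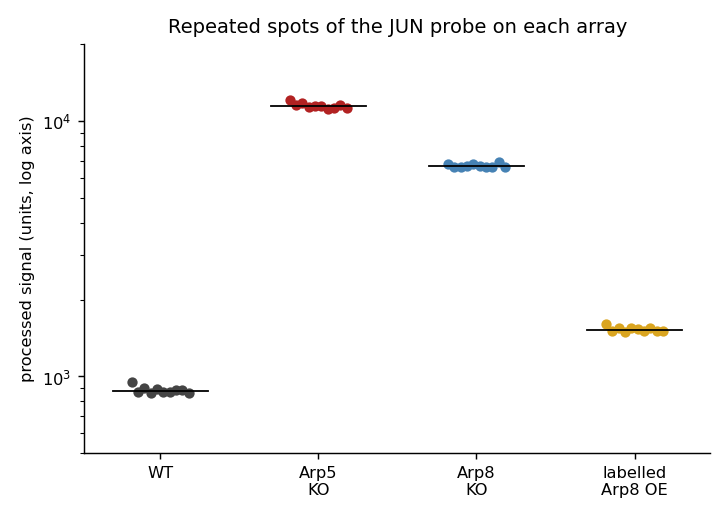
Processed signal of the 10 spots of the *JUN* probe on each array, in units on a log axis, with a black line at the median of 878, 11429, 6640 and 1525 units from left to right. OE stands for overexpression.

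*JUNB* encodes a Jun protein with weaker transactivation than c-Jun that is abundant in lymphoid cells. Probe A_23_P4821 gave 5622 units in WT, 9487 in Arp5 KO, 6754 in Arp8 KO and 4247 on the array labelled Arp8 overexpression, and A_24_P241815 gave 560, 913, 661 and 370. Both probes put Arp5 KO highest and the array labelled Arp8 overexpression lowest. The log2 ratio over WT was 0.78 in Arp5 KO, 0.25 in Arp8 KO and -0.43 on the array labelled Arp8 overexpression, and with the other probe 0.73, 0.22 and -0.62. No ratio to WT was past 2-fold. Arp5 KO was 2.31-fold above the array labelled Arp8 overexpression, at a log2 ratio of 1.20.

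The *JUN* stretch is chr1:58784048-58784187 on the minus strand and the *JUNB* stretch chr19:12791346-12791485 on the plus strand. Both are printed because *JUN* differed more than *JUNB*, the other measured Jun gene.
JUN: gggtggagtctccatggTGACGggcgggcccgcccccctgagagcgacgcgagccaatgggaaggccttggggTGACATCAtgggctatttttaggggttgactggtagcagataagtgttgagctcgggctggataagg
JUNB: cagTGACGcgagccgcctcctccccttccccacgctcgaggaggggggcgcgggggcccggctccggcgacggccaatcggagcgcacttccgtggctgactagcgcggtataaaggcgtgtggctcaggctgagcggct
*JUN* holds TGACATCA from -67 to -60, at about the distance of TGACG in *FOS*, and TGACG from -123 to -119. *JUNB* holds TGACG farther out, from -137 to -133. TGACATCA was in 2.61% of all windows. In all, TGACG, added after these windows had been seen, was in those of 6 of the 8 genes, which include *JUND*, against 24.6% of all windows, so nothing is read from its count, and TGACGTCA was in that of *JUND* alone, against 1.85% of all windows. The CArG box was in 0 of the members' windows and in 1.29% of all windows, and bases farther upstream were not searched.

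*BATF*, a bZIP gene of lymphocytes whose product pairs with Jun proteins and has no transactivation domain, followed another order. Probe A_23_P128974 gave 392 units in WT, 267 in Arp5 KO, 1432 in Arp8 KO and 1001 on the array labelled Arp8 overexpression. Both Arp8 arrays were high and Arp5 KO was lowest. The log2 ratio over WT was 1.85 in Arp8 KO (3.61-fold) and 1.33 on the array labelled Arp8 overexpression (2.51-fold), and -0.53 in Arp5 KO (1.45-fold lower). *BATF* ranked 50 of 13502 genes from the highest in Arp8 KO over WT and 124 of 13622 on the array labelled Arp8 overexpression over WT. Between the KO arrays its log2 ratio was -2.38 in Arp5 KO over Arp8 KO, or 5.22-fold lower in Arp5 KO.

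Of 5 myeloid markers 4 were above background, and over WT 0 were past 2-fold in Arp5 KO, 1 was in Arp8 KO (*LYZ*) and 2 were on the array labelled Arp8 overexpression (*LYZ* and *CSF1R*), all higher, beside 1.82% and 1.86% of all genes higher on these Arp8 arrays. *LYZ*, the lysozyme gene, gave 55.4 units in WT, 46.3 in Arp5 KO, 143 in Arp8 KO and 140 on the array labelled Arp8 overexpression. Log2 ratios over WT in Arp5 KO, Arp8 KO and labelled Arp8 overexpression were -0.41, 0.94 and 0.50 for the integrin gene *ITGAM* and 0.01, 0.53 and 1.17 for the receptor gene *CSF1R*, which was under 20 units in WT, where the technical SD was 0.491. *CD14* had 0.08, 0.02 and -0.14, and *MPO* was not well above background on any array. The medians of the 4 genes were -0.11, 0.74 and 0.84. In Arp5 KO over Arp8 KO, 2 of the 4 were past 2-fold lower, *LYZ* at -1.58 and *ITGAM* at -1.36, and 0 higher. The shares of all genes were 1.65% lower and 1.58% higher, and the median of the 4 was -0.94. Their summed levels were 0.113 times the 75th percentile in WT, 0.108 in Arp5 KO, 0.178 in Arp8 KO and 0.164 under the label Arp8 overexpression, with the strongest signal from the *CD14* probe in WT and Arp5 KO and from the *LYZ* probe on both Arp8 arrays. The part of such cells in the *BATF* values was not tested.

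The *BATF* stretch is chr14:75522329-75522468 on the plus strand and is shown because *BATF* differed in order from *FOS* and *JUN*.
BATF: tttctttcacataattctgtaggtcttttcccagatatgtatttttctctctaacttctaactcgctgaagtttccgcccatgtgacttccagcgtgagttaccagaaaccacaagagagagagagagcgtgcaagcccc
None of the motifs searched was in the *BATF* window, which says only that these letters are absent from it. *FOS* and *BATF* are near neighbours on chromosome 14, where the RefSeq gene table lists only *JDP2* between them among protein-coding genes. *JDP2*, which encodes another bZIP partner of Jun proteins, gave 9401 units in WT, 8736 in Arp5 KO, 12905 in Arp8 KO and 11375 on the array labelled Arp8 overexpression. Its log2 ratio over WT was -0.08 in Arp5 KO, 0.44 in Arp8 KO and 0.25 on the array labelled Arp8 overexpression, so it was highest on the Arp8 arrays, as *BATF* was, but by less than 2-fold. Beyond the pair, named for their place and after their values were seen, *TMED10* had log2 ratios of -0.19, -0.22 and 0.15 and *NEK9* of -0.02, -0.01 and -0.07 on the *FOS* side. On the *BATF* side *ERG28* had -0.06, 0.19 and 0.18, and *FLVCR2* was not well above background.

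**Figure D3:**
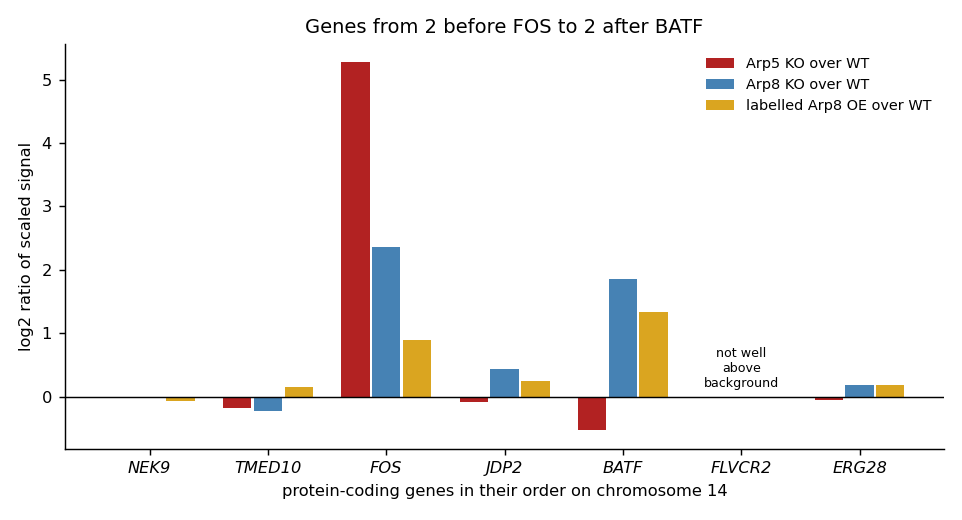
Log2 ratio over WT of the protein-coding genes from *NEK9* to *ERG28* in their order on chromosome 14, with bars for Arp5 KO, Arp8 KO and the array labelled Arp8 overexpression (OE). *FOS* reaches 5.27 in Arp5 KO and *BATF* 1.85 in Arp8 KO, while *JDP2* between them stays between -0.08 and 0.44.

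*ATF3*, which encodes a stress-induced bZIP protein that often represses transcription, was higher on both KO arrays, by less than 2-fold with either probe. Probe A_23_P34915 gave 1469 units in WT, 2106 in Arp5 KO, 2150 in Arp8 KO and 1391 on the array labelled Arp8 overexpression. Both KO arrays lay above the 2 others, which were close to each other. The log2 ratio over WT was 0.54 in Arp5 KO (1.46-fold), 0.53 in Arp8 KO (1.45-fold) and -0.10 on the array labelled Arp8 overexpression. Its dimmer probe, A_24_P33895, gave 92.4, 147, 128 and 91.2 units in the same order and log2 ratios of 0.69, 0.45 and -0.04. Arp5 KO over Arp8 KO was 0.01 with the brighter probe and 0.24 with the dimmer, where the technical SD was 0.0314 and 0.0628, and the sign of the former depends on the setting. RefSeq gives *ATF3* 2 starts, and the window of the first, of which chr1:212565267-212565406 on the plus strand is shown for its motif, holds TGACATCA from -123 to -116, while none of the motifs was found in the other.
ATF3: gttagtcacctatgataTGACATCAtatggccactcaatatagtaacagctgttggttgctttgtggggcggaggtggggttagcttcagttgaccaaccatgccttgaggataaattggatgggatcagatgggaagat

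Counted over the 8 measured genes, 3 were at least 2-fold higher in Arp5 KO than in WT (*FOS*, *FOSB* and *JUN*) and 0 were lower, where 1.16% of 13705 genes were higher and 1.39% lower. In Arp8 KO over WT, 4 were higher (*FOS*, *FOSB*, *JUN* and *BATF*) and 0 lower, where 1.82% of 13502 genes were higher and 1.92% lower. On the array labelled Arp8 overexpression over WT, 1 was higher (*BATF*) and 0 lower, where 1.86% of 13622 genes were higher and 1.94% lower. These 3 comparisons share the WT array. Because the members were selected on these values, nothing is read from the counts. The members' median log2 ratio was 0.66, 0.85 and 0.32 in that order, beside 0.03, 0.03 and 0.04 over all genes.

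Setting the KO arrays against the array labelled Arp8 overexpression gave a reference other than WT. In Arp5 KO over that array, 4 members were higher (*FOS*, *FOSB*, *JUN* and *JUNB*) and 1 lower (*BATF*), where 2.13% of 13668 genes were higher and 2.09% lower. In Arp8 KO over that array, 2 were higher (*FOS* and *JUN*) and 0 lower, where 0.75% of 13459 genes were higher and 1.07% lower. *JUN* was 4.38-fold higher there and ranked 3 of 13459 genes, and *FOS* was 2.76-fold higher. The Arp8 KO array therefore held more *FOS* and *JUN* signal than either array without a KO label, while its *BATF* signal was only 1.44-fold above the array labelled Arp8 overexpression.

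The KO arrays were also compared with each other. In Arp5 KO over Arp8 KO, 2 members were higher (*FOS* and *FOSB*) and 1 lower (*BATF*), where 1.58% of 13535 genes were higher and 1.65% lower. *FOS* was 7.51-fold and *FOSB* 4.30-fold higher in Arp5 KO, whereas *JUN* was 1.76-fold, *JUNB* 1.44-fold and *ATF3* 1.01-fold higher. *FOS* and *FOSB* thus set the KO arrays apart by more than *JUN* and *JUNB* did.

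**Figure D4:**
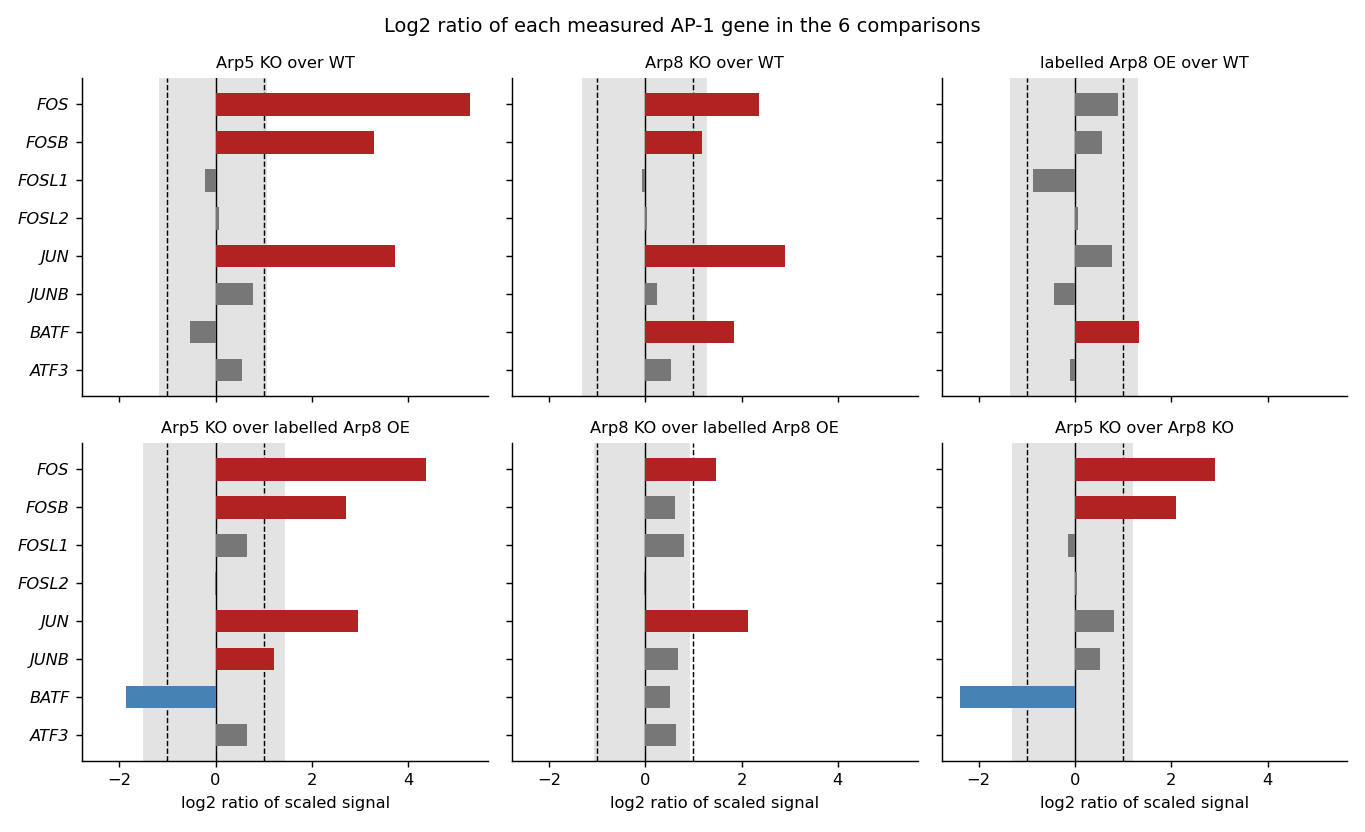
Log2 ratio of scaled signal for the 8 measured AP-1 genes in the 6 comparisons, with red bars at least 2-fold higher, blue bars at least 2-fold lower and grey bars between. Dashed lines mark 2-fold, the grey band spans percentiles 1 to 99 of all genes, and OE stands for overexpression. *FOS* reaches 5.27 in Arp5 KO over WT and *BATF* falls to -2.38 in Arp5 KO over Arp8 KO.

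Genes with which AP-1 works were then examined. The lists were chosen with earlier results of these data known, so their counts are a description. Over WT at most 1.86% of all genes were past 2-fold higher and 1.94% lower on any array, so a count of 0 in lists as short as these is not a result about the list, and a count of 1 rests on a single gene. Of 7 other bZIP genes whose products can pair with Fos or Jun proteins, all 7 were above background on at least 1 array. Against WT, 0 were past 2-fold in Arp5 KO, and 1 was in Arp8 KO, *BATF2*, at 21.1 units in WT, 18.9 in Arp5 KO, 46.2 in Arp8 KO and 23.3 on the array labelled Arp8 overexpression. *BATF2*, a relative of *BATF*, was thus high in Arp8 KO but not on the other Arp8 array. There 1 gene of the list was past 2-fold, *CREB5*, at a log2 ratio of 1.32. The list's median log2 ratio over WT was -0.19 in Arp5 KO, 0.08 in Arp8 KO and 0.12 on the array labelled Arp8 overexpression.

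Of 21 genes of the MAP kinase route to AP-1, whose kinases phosphorylate Jun and induce *FOS*, 19 were above background, and 0 were past 2-fold on any array over WT, with medians of 0.06, 0.11 and 0.22 in the order Arp5 KO, Arp8 KO and labelled Arp8 overexpression. Smaller differences were present, and the p38 kinase gene *MAPK11* had log2 ratios of 0.55, 0.66 and 0.89. Of the Jun kinase genes only *MAPK9* was measured, at 0.32, 0.44 and 0.36, as *MAPK8* had no matched probe and *MAPK10* was not well above background. The 16 factors that bind the *FOS* and *JUN* promoters, such as *SRF*, *ELK1* and *CREB1*, also had 0 past 2-fold, with medians of -0.05, -0.03 and 0.05. For 7 genes of Fos and Jun mRNA or protein turnover, such as *ZFP36* and *FBXW7*, the count was again 0, and the medians were -0.04, -0.24 and -0.24. The arrays measure mRNA, so phosphorylation and protein levels of these factors were not measured.

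Of 20 AP-1 target genes known from other cell types, 14 were above background on at least 1 array. In Arp5 KO over WT 0 of the 13 with a ratio were higher and 2 were lower, *SPP1* and *MMP3*, beside 1.16% and 1.39% of all genes. *SPP1*, the osteopontin gene, gave 3666 units in WT, 1604 in Arp5 KO, 3643 in Arp8 KO and 2613 on the array labelled Arp8 overexpression. *MMP3*, a matrix metalloproteinase gene, was well above background only in WT, at 14.2 units, so that its ratios are bounds set by the lowest accepted signal of the other array, 6.90 units in Arp5 KO and 9.44 in Arp8 KO. Its call in Arp5 KO alone therefore does not show a difference between the KO arrays. Over WT, 0 were past 2-fold in Arp8 KO or under the label Arp8 overexpression. The list's medians were -0.09, -0.11 and -0.16.

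Other immediate early genes were split. The list was chosen with earlier results of these data known, so nothing is read from its counts. Of 15 such genes, 12 were above background on at least 1 array, with 3 of 12 higher in Arp5 KO over WT (*EGR1*, *IER2* and *IER3*) and 0 lower, beside 1.16% and 1.39% of all genes. In Arp8 KO over WT 3 of 11 were higher (*EGR1*, *EGR2* and *NR4A2*) and 1 lower (*EGR4*), beside 1.82% and 1.92% of all genes. *EGR1*, a zinc finger gene induced through the same kinases as *FOS*, gave 85.2 units in WT, 4249 in Arp5 KO, 280 in Arp8 KO and 119 on the array labelled Arp8 overexpression. It thus had the order of arrays seen for *FOS*, with log2 ratios over WT of 5.66, 1.70 and 0.46. *IER2* gave 55197 units in WT, 146116 in Arp5 KO, 67528 in Arp8 KO and 48923 on the array labelled Arp8 overexpression. It was high in Arp5 KO, at a log2 ratio of 1.43 over WT, and near WT elsewhere. *EGR4* was lower on both Arp8 arrays, where it was not well above background, after 67.7 units in WT and 49.2 in Arp5 KO, and it is the 1 gene of the list past 2-fold on the array labelled Arp8 overexpression. *NR4A2*, not well above background in WT, had 24.8 units in Arp8 KO. The list's medians over WT were 0.41, 0.27 and -0.12.

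Genes of heat shock and handling stress were examined beside these values. Of 8 such genes 7 had a matched probe, all 7 above background, and 1 was past 2-fold over WT, *GADD45B* in Arp5 KO, at 2122 units in WT, 5228 in Arp5 KO, 2686 in Arp8 KO and 2409 on the array labelled Arp8 overexpression. Medians of the list were 0.15, 0.32 and 0.16, and its part in the AP-1 values was not tested. The 7 reference genes had 0 past 2-fold, with medians of 0.03, -0.04 and -0.03, and 9 spike-in probes had median log2 ratios of -0.08, 0.11 and 0.01, with lowest values of -2.18, -2.92 and -2.52 and highest of 0.02, 0.19 and 0.13.

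**Figure D5:**
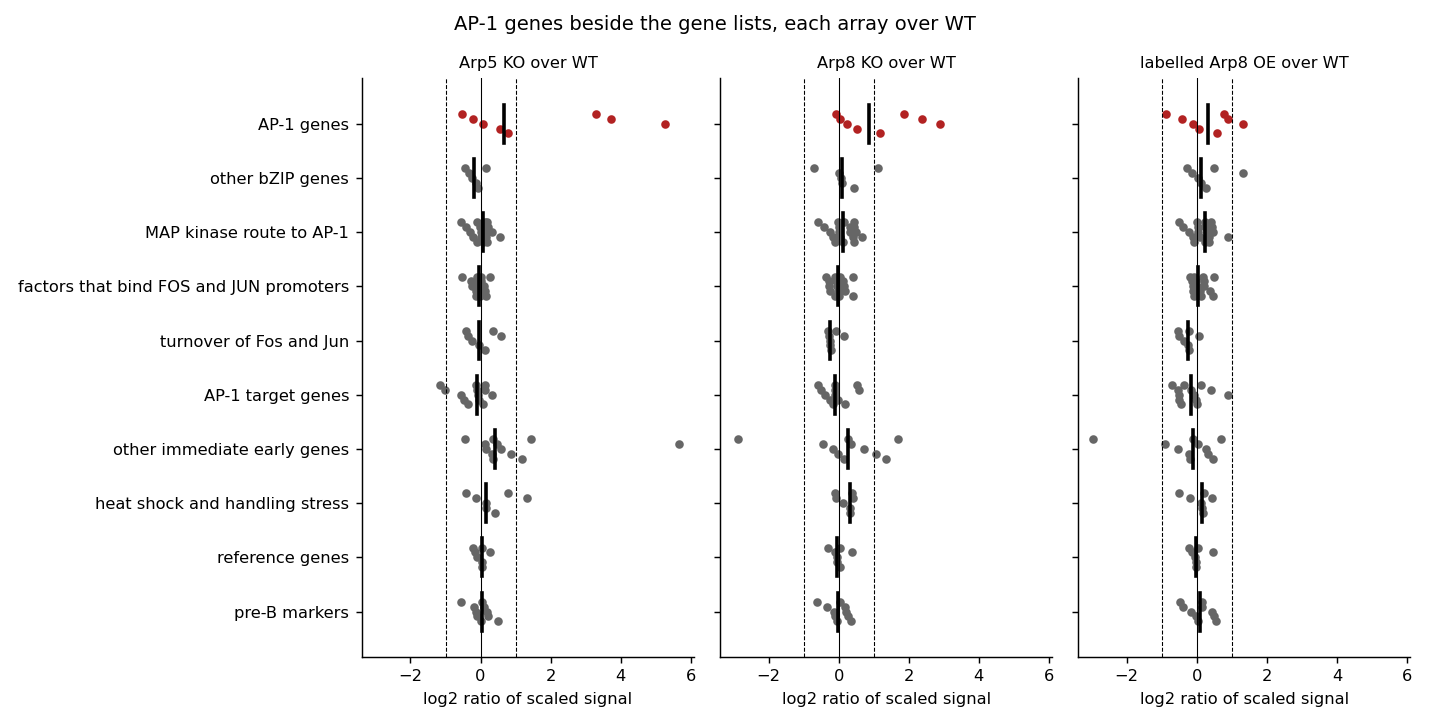
Log2 ratio over WT of the AP-1 genes (red) and of the genes of each list (grey) in Arp5 KO, Arp8 KO and the array labelled Arp8 overexpression (OE), with 1 point per gene and a black line at the median. Dashed lines mark 2-fold. The AP-1 medians are 0.66, 0.85 and 0.32, and the highest grey point is *EGR1* at 5.66 in Arp5 KO.

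Patterns most like *FOS* and *JUN* were sought among 12959 other genes above background on all 4 arrays, by the root mean square distance over the 3 log2 ratios to WT. For *FOS* the nearest was *EGR1*, at a distance of 0.511, followed at a wide gap by *TNF* (1.54), *HHIP* (1.71), *MED18* (1.74) and *PHLDA1* (1.89). By this distance *FOS* thus had 1 close neighbour among the genes searched, which left out the AP-1 members. The distance depends on the size of the ratios. As *FOS* ranked 2 of 13705 genes in Arp5 KO over WT, few genes could lie near it. *EGR1* was also in the search by Pearson r over 967 genes, but was not among the 5 nearest to *FOS* there. For *JUN* the nearest were *MED18* (0.879), *HHIP* (1.11), *TNF* (1.14), *SBSPON* (1.23) and *ATP7B* (1.24). *MED18*, a Mediator subunit gene, had log2 ratios over WT of 2.56 in Arp5 KO, 3.46 in Arp8 KO and 1.58 on the array labelled Arp8 overexpression, so that unlike *JUN* it was higher in Arp8 KO than in Arp5 KO. *TNF*, the tumor necrosis factor gene, had 2.95, 1.09 and 0.58, close to the 3.28, 1.18 and 0.57 of *FOSB*, at a distance of 0.196 from that gene.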

How the data were processed

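The authors deposited 1 Agilent Feature Extraction 10.5.1.1 output per array, whose processed signal is an intensity, background-subtracted and detrended within the array. They also deposited an intensity table with column medians of 127 (WT), 128 (Arp5 KO), 122 (Arp8 KO) and 119 (labelled Arp8 overexpression). Over the spots well above background, its median ratio to the processed signal was 0.847, 0.838, 0.825 and 0.807. In WT the 1st and 99th percentiles of that ratio were 0.844 and 0.850. The table is not centred, and how these factors were set is unknown here. All 4 arrays came from 1 slide and 1 scan.

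Outlier spots were left out and log2 spots of a probe averaged. A ratio needed the brighter array well above background, and a dimmer signal below the lowest such signal of its array was raised to it. A gene took its brightest probe. Accessions matched 26222 of 41000 probes (64.0%) to RefSeq GRCh38.p14, used for names and gene order. The ratio step was tested on simulated data. Python 3.11.15, numpy 2.4.6, pandas 2.3.3, matplotlib 3.10.9, R 4.3.3 and limma 3.58.1 (normexp, offset 50) were used. Normexp was run on the median signal.

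Named were all members, in each list up to 4 genes past 2-fold in a KO over WT with the largest ratios, the 5 genes nearest to *FOS* and *JUN*, and the targets. *EGR2*, *IER3*, *CREB5*, *MAPK9*, *MAPK11*, the single myeloid markers, and the nearest gene of *FOSB* were added after their values were seen. Members and lists were chosen with earlier results of these data known. The planned bZIP protein sequences were not used here.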

Additional observations from a re-analysis of the deposited data

Results flagged for a closer look

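*BATF* lay on opposite sides of WT on the KO arrays, with a log2 ratio of -0.53 for Arp5 KO over WT and 1.85 for Arp8 KO over WT. It stood out because the other members past 2-fold over WT in a KO were higher than WT on both KO arrays. With 1 array per genotype the difference was not tested.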

How the results depend on the processing

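The counts of members past 2-fold were recomputed under other scalings, the deposited table, normexp background correction, other filters on dim probes, outlier spots kept and the mean over probes, and in each comparison they stayed within 1.5 times the count given. The filters on dim probes could not move a member, since the probe used for each was well above background on all 4 arrays. Keeping outlier spots left every member value as it was. The mean over probes could not move *FOS*, *FOSB*, *JUN* or *BATF*, which had 1 matched probe each. Values left as they were by these settings are included in the number of alternative values below and say nothing about stability. Other fold thresholds changed the count in all 6 comparisons, by more than 1.5 times in 2. On the array labelled Arp8 overexpression over WT, 4 members were past 1.5-fold and 0 past 3-fold, and in Arp8 KO over that array 6 were past 1.5-fold and 1 past 3-fold, as follows from the threshold itself. Of 432 alternative values of single members 66 moved by more than the technical SD, among them 23 of the 162 for ratios past 2-fold, and 0 of those past 2-fold changed sign. Normexp gave a log2 ratio of 0.49 for *FOSB* in Arp8 KO over WT and 4.23 for *FOS* in Arp5 KO over WT. Small ratios of *FOSL1*, *FOSL2* and *ATF3* took either sign. By Pearson r over the 4 arrays among the 967 genes with a range of at least 2-fold, a change of both measure and gene set, 2 of the 5 genes nearest to *FOS* (*HHIP* and *TNF*) and 1 of those nearest to *JUN* (*ATP7B*) were shared with the distance search.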
